A study of Homo sapiens with 6 samples.

Results

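Replication-dependent histone genes encode the H1, H2A, H2B, H3 and H4 proteins that package newly made DNA. They were taken as the array rows annotated with exactly 1 gene symbol, where that symbol was H1-1 to H1-6 or an H2AC, H2BC, H3C or H4C gene with a number, pseudogenes left out. The rule found 57 of 33297 probe sets. The rows of H4C14 and H4C15 held identical values on every array and were counted once, as H4C14, which left 56 genes of 18416. They were 6 H1, 14 H2A, 16 H2B, 8 H3 and 12 H4 genes, of which 49 lie on chromosome 6, 6 on chromosome 1 and 1, H4C16, on chromosome 12. A further 19 rows carried several histone symbols each and were not members, so 12 of the 69 clustered histone genes in RefSeq had no row with a single symbol.

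Expression was measured on 6 Affymetrix whole-transcript arrays, 1 for each group. HCT116, a human colon cancer line, received control siRNA or siRNA against NRF3, the transcription factor encoded by NFE2L3, for 48 h. HCT116-p53KO, a p53-deficient derivative, received the same siRNAs, and the labels do not say whether it is 1 clone or a pool. H1299, a human lung carcinoma line that lacks p53, carried a plasmid for GFP or for NRF3 in stable lines selected with an antibiotic. No group had another array, so a difference within a line had no replicate, and precision is limited by how few arrays there were. The level of NFE2L3, as an RMA log2 intensity, was 8.97 with control and 6.62 with NRF3 siRNA in HCT116, 8.71 and 7.15 in HCT116-p53KO, and 8.18 with GFP and 10.20 with NRF3 in H1299. Epithelial EPCAM (10.91 to 11.42) and intestinal CDX2 (8.39 to 8.69) were present in the HCT116 lines, where the colon markers VIL1 and CDH17 stayed under 6. H1299 had mesenchymal VIM at 12.08 and 12.45 and the epithelial keratins KRT8 at 10.10 and 10.30 and KRT18 at 10.99 and 11.13. EPCAM, CDH1, KRT19 and the lung markers NKX2-1, SFTPB, SFTPC and NAPSA were all under 6 there. Some markers did not follow the tissue of origin. In H1299 the intestinal CDX1 was at 6.85 and 6.89 and CDX2 at 6.73 and 6.62. NAPSA was at 6.15 to 6.59 in the HCT116 lines. The H1299 arrays had median intensities of 6.05 and 6.08 and every other array 6.95 or more, so log2 levels were not compared between H1299 and the HCT116 lines.

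Transcription of these genes is coupled to S phase. Cyclin E with CDK2 phosphorylates NPAT, which works with FLASH (CASP8AP2) at histone locus bodies. The transcripts end in a stem-loop in place of a poly(A) tail. SLBP binds the stem-loop, the U7 snRNP directs cleavage, and the exonuclease ERI1 trims the end and takes part in decay once DNA synthesis stops. Some clustered genes, including H1-2, H2AC6, H2BC5, H2BC12 and H2BC21, are also known to give polyadenylated transcripts in cells that leave the cycle or differentiate. These 5 are given apart from the rest below. The list may not be complete, so the rest may hold other genes with such transcripts.

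The 250 bases before the start of 6 genes are shown because these genes stand for the patterns that follow. H2BC7 and H2BC14 were lower after NRF3 siRNA in HCT116, H2BC12 and H2BC21 were higher, H4C4 had the lowest difference of the H4 genes there, and H1-2 is an H1 gene with both known RNA forms. The sequences are those of RefSeq on GRCh38.p14, written 5′ to 3′ on the strand of the gene. Capitals mark 4 motifs on either strand: the octamer bound by OCT1 (ATTTGCAT), the CCAAT box (CCAAT), the TATA box (TATAAA) and the H1 box (AAACACA).
H2BC7: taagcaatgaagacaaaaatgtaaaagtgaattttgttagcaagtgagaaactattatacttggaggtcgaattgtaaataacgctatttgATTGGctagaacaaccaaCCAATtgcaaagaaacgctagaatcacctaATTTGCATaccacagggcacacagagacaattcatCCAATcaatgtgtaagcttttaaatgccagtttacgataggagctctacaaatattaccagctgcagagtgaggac
H2BC14: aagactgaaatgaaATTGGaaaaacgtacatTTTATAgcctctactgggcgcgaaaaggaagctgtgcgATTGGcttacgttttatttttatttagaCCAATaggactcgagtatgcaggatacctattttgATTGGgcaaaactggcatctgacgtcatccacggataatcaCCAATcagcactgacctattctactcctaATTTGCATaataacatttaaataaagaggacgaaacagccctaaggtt
H2BC12: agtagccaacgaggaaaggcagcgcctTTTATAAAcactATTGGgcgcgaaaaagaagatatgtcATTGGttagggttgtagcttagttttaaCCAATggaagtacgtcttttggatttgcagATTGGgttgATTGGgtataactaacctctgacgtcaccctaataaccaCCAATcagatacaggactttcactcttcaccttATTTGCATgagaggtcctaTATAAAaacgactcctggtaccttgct
H2BC21: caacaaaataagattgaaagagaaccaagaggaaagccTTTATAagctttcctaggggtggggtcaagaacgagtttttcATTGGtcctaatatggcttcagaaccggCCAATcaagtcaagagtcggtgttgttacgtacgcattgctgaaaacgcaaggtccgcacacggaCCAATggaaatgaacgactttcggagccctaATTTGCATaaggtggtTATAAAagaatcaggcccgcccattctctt
H4C4: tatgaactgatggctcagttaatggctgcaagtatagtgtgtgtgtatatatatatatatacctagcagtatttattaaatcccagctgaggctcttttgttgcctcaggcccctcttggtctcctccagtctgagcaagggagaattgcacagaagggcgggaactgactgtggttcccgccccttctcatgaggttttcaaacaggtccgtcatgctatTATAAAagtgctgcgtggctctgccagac
H1-2: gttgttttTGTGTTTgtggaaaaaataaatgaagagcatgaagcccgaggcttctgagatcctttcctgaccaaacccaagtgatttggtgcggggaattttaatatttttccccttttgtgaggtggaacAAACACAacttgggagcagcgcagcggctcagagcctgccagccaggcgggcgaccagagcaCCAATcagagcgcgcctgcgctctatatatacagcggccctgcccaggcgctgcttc
The stretches lie at chr6:26199266-26199515 (plus strand), chr6:27814772-27815021 (plus strand), chr6:27146859-27147108 (minus strand), chr1:149886683-149886932 (minus strand), chr6:26189113-26189362 (minus strand) and chr6:26056471-26056720 (minus strand). In H2BC12, a pair of TATAAA matches on opposite strands overlap each other in the first capital run that holds them.

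Promoters were found for 51 of the 56 genes, and the same upstream window was searched in 35116 promoters of all RefSeq genes. The octamer was present in 23 of 51 (45.1%) against 1.63% of all promoters, in 13 of 16 H2B and 10 of 13 H2A genes and in no H1, H3 or H4 gene. The CCAAT box was present in 44 of 51 (86.3%) against 32.0%. It was in every H1, H2A, H2B and H3 promoter matched and in 3 of 10 H4 promoters. TATAAA was present in 34 of 51 (66.7%) against 10.7%. Matches were counted at any position in the window on either strand, so not each marks a working TATA box. The match in H2BC14 lies on the opposite strand, at -219 from the start site. The H1 box was in 6 of 6 H1 promoters and in no other of the 51, against 4.82% of all promoters. A match describes the letters in this window and is no measure of binding. The 4 H2B sequences printed, from genes that were lower and genes that were higher in HCT116, all hold the octamer and CCAAT boxes. Genes with the octamer had a median difference of -0.40 after NRF3 siRNA in HCT116 (13 of 17 measured were lower), and genes without it -0.37 (16 of 21 lower). In HCT116-p53KO 10 of 17 genes with the octamer were lower, with a median of -0.05, and 6 of 22 without it, with a median of 0.03. In HCT116 the 5 measured genes without a CCAAT box, all H4, were lower, with a median of -0.56, and 24 of 33 with it were, with a median of -0.21.

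A log2 intensity of 6 served as the limit for counting a gene as measured in a comparison, on at least 1 of its arrays. The limit lay below the array medians of the HCT116 lines, 6.95 or more, but near the H1299 medians of 6.05 and 6.08. A value just under 6 in H1299 thus lies near the middle of the scale of that array. Of the 56 genes, 33 lay at 6 or more on all 6 arrays and 7 lay under it on all 6. The 7 were H2AC1, H2BC1, H2BC3, H2BC10, H4C7, H4C13 and H4C16. H2AC1 and H2BC1 encode testis histones. H1-6, the testis linker histone, read 6.18 and 6.68 in HCT116, 6.70 and 6.43 in HCT116-p53KO and 4.83 and 4.59 in H1299 (control then NRF3 siRNA, or GFP then NRF3, in this and later sentences). It was the only one of these 3 testis genes above 6 on any array.

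**Figure D1:**
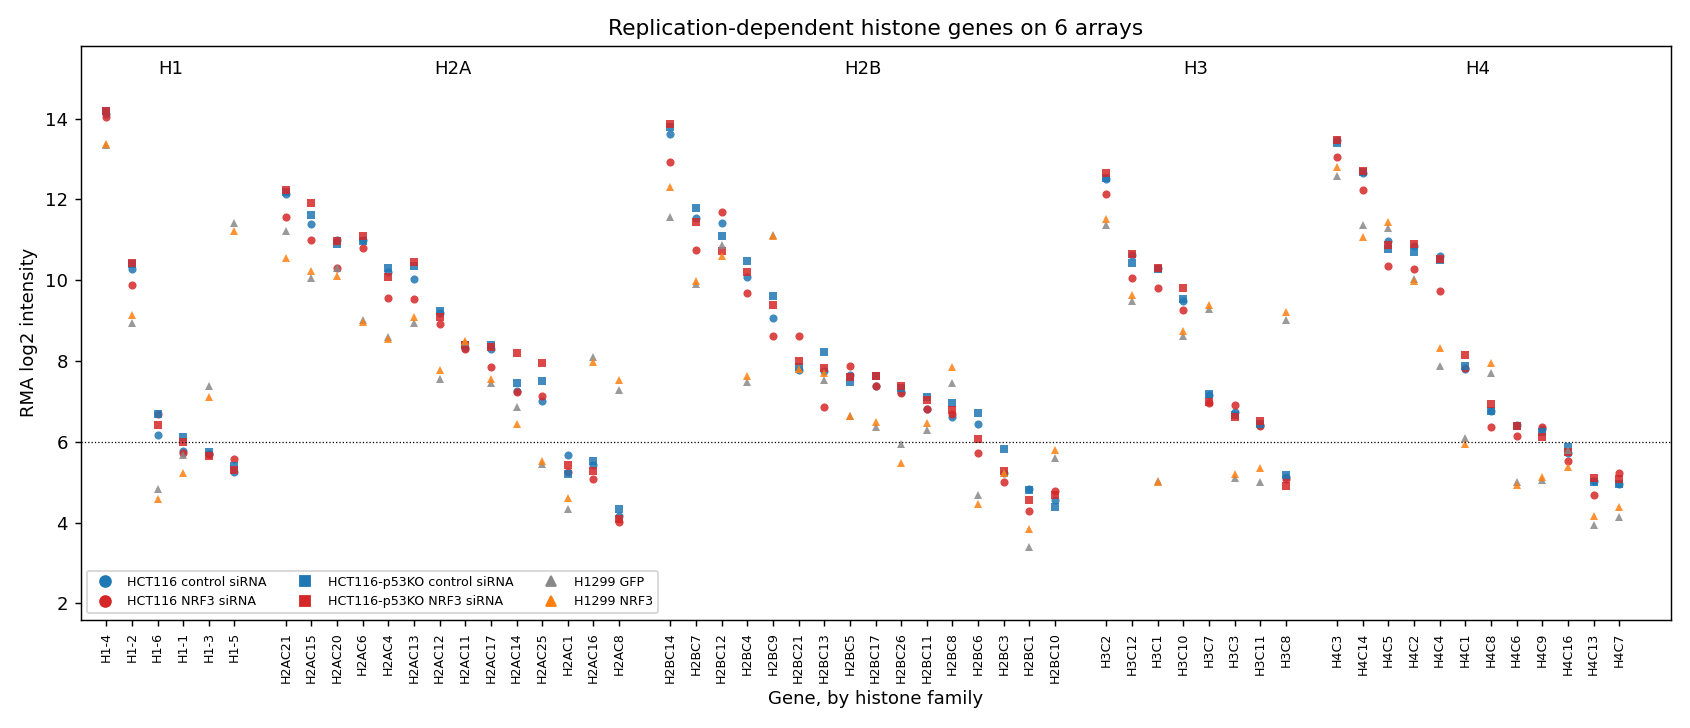
RMA log2 intensity (vertical axis) of each of the 56 genes on the 6 arrays, by histone family, with 1 point an array and a dotted line at 6. Points are to be compared within a gene among the 4 HCT116 and HCT116-p53KO arrays or between the H1299 arrays, since probe sets differ in response and the H1299 arrays have medians about a log2 unit lower. The HCT116 NRF3 siRNA point lies lowest of the 4 for many genes with a high signal.

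Each family held probe sets from near the top to near the bottom of the scale. In H1, the linker histone, H1-4 gave the highest signal, 14.12 and 14.05 in HCT116, 14.18 and 14.18 in HCT116-p53KO and 13.35 and 13.38 in H1299. H1-5 read 5.26 and 5.58, 5.40 and 5.29, and 11.41 and 11.21 in the same order. H1-5 was thus under 6 on all 4 arrays of the HCT116 lines and far above it on both H1299 arrays. In H2A, H2AC21 had the highest signal, 12.14 and 11.57 in HCT116, 12.19 and 12.22 in HCT116-p53KO and 11.21 and 10.56 in H1299. H2AC8 had 4.17 and 4.02, 4.34 and 4.09, and 7.28 and 7.52, and was above 6 in H1299 alone. In H2B the highest mean over the arrays was that of H2BC14 and the lowest that of H2BC1, which stayed between 3.39 and 4.84. In H3 the highest mean was that of H3C2, at 11.36 to 12.67, and in H4 that of H4C3, at 12.58 to 13.46, while H4C13 stayed between 3.95 and 5.11. The lowest means in H1, H2A and H3 were those of H1-1 (5.23 to 6.13), H2AC1 (4.34 to 5.67) and H3C11 (6.52 at most).

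To set the lines side by side, each gene was placed by its percentile among the 18416 genes of an array. Over the 4 arrays of the HCT116 lines, the range from a gene's lowest to highest percentile had a median of 4.71 points. It was 24.8 points at most, for H2BC13. The absolute gap between the H1299 arrays had a median of 1.34 points. The absolute gap between the mean of the HCT116 lines and the mean of H1299 had a median of 6.73 points, against 5.19 points over all genes. A range over 4 arrays, a gap between single arrays and a gap between means are unlike measures. In all, 18 of 56 were at the 90th percentile or above in HCT116 with control siRNA and 16 in H1299 with GFP. Across the 56 genes the mean percentiles of both kinds of line had a Pearson correlation of 0.707, against 0.895 across all genes, a description over genes that share arrays.

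Of the 56 genes, 9 (16.1%) lay over 20 points higher in H1299 and 2 (3.57%) over 20 points lower, where 4.88% and 4.15% of all genes did. H3C1, an H3 gene near the start of the chromosome 6 cluster, was at percentile 90.6 in the HCT116 lines and 23.4 in H1299. H2BC4 was lower in H1299 too, at 68.3, a shift of -21.7 points. H1-5 went the other way, 17.8 against 98.7, as did the H3 gene H3C8, which was 75.4 points higher in H1299 at 89.4. The neighbouring H2AC16 was at 17.1 against 76.2, and H2AC8 at 5.4 against 65.4. The other 5 genes higher in H1299 were H3C7 (43.7 against 91.4), H1-3 (22.0 against 62.9), H4C8 (37.5 against 72.9), H2BC8 (38.4 against 69.9) and H2BC10 (9.1 against 35.1). The percentile counts took all 56 genes with no intensity limit, and H2BC10 was under 6 on every array. No test of a line difference is possible with H1299 as 1 line, and these values come with differences of plasmid, selection, culture medium and array scaling that cannot be told apart from the line.

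Those 9 genes were not scattered along chromosome 6. Taking the clustered histone genes in RefSeq order, 7 of the 9 fell in a run of 11 consecutive genes from H2BC8 to H4C8, of which 10 are members. H2BC10, under a log2 intensity of 6 on every array, is among the 7. The remaining pair, H2AC16 and H1-5, are next to each other further along. Among the 39 chromosome 6 members outside the run, 2 lay over 20 points higher in H1299. Median percentiles in the run were 26.7 in the HCT116 lines and 67.7 in H1299, and outside it 65.8 and 70.3. The run was picked out after the values were seen, so these counts are a description. H4C6 and H4C7, inside the run, did not share the shift, at 31.5 against 22.4 and 13.8 against 11.9.

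**Figure D2:**
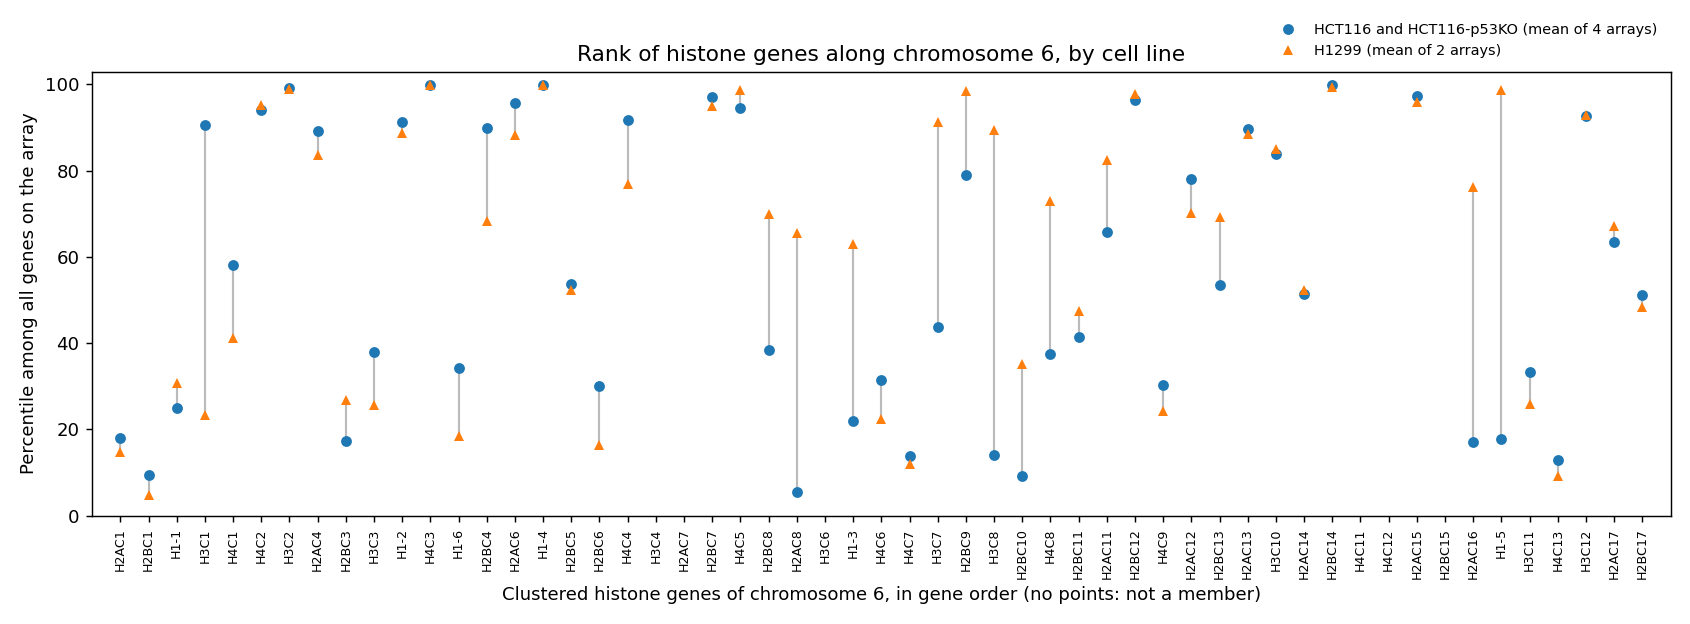
Percentile of each member among all genes on the array (vertical axis), in gene order along chromosome 6, as the mean of the 4 HCT116 and HCT116-p53KO arrays (circles) and of the 2 H1299 arrays (triangles), with lines joining both. Genes from H2BC8 to H4C8 have most of the long upward gaps, 7 of the 9 that exceed 20 points, and H3C1 has the longest downward gap.

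After NRF3 siRNA in HCT116, the replication-dependent histone genes were mostly lower. Of 43 genes measured, 33 were lower and 10 higher, with a median difference of -0.37 on the log2 scale against 0.01 over all 14033 genes measured. Of the 43, 8 were lower by at least 1.5-fold, or 18.6%, where 6.02% of all genes were, and 1 was higher by as much, where 2.72% of all genes were. These counts describe 1 pair of arrays and carry no test.

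The core histone families differed in how uniform they were. In H2A, 10 of 11 measured genes were lower, with a median of -0.42, and in H4 7 of 9 were lower, with a median of -0.40. In H3, which forms the tetramer with H4, 6 of 7 were lower, with a median of -0.20. In H2B, 8 of 13 were lower and 5 higher, and the median was -0.01 although 4 of the 8 genes past 1.5-fold were H2B genes. Of the 5 higher, H2BC5, H2BC12 and H2BC21 are also known to be polyadenylated. H2BC8 and H2BC17, also higher, were at 6.60 and 7.39 with control siRNA. Signal and RNA form were not held equal between families. In H1, 2 of 3 were lower, with a median of -0.07.

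The lowest differences were in H2B, H4 and H2A genes. H2BC13 had a log2 intensity of 7.75 with control and 6.87 with NRF3 siRNA, a 1.85-fold lower value. H4C4 went from 10.59 to 9.73, or 1.81-fold lower, and H2BC7 from 11.55 to 10.74, or 1.76-fold lower. H2BC6 was at 6.44 and 5.71, which crosses the limit of 6. The other 4 genes past 1.5-fold were H2AC20, at 10.30 with NRF3 siRNA and lower by a log2 difference of -0.70, H2BC14, from 13.62 to 12.93, H2AC4, from 10.20 to 9.56, and H4C5, from 10.97 to 10.35. Most of these 8 genes lay well above the low end of the scale.

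The genes with the highest differences included 3 of the 5 listed as also known to be polyadenylated. H2BC21 had 7.78 with control and 8.62 with NRF3 siRNA, or 1.79-fold higher, the only member past 1.5-fold upward. H1-6 followed, 1.41-fold higher, and then H2BC12, from 11.41 to 11.70, or 1.22-fold higher. H2BC5, from 7.65 to 7.88, was 1.18-fold higher, and H3C3, from 6.73 to 6.91, 1.14-fold higher. The 2 other genes of that list were lower, H1-2 at 10.28 and 9.88 and H2AC6 at 10.99 and 10.79. The median over the 5 was 0.23, and the other 38 measured genes had a median of -0.40, with 31 of them lower. That list was drawn up with earlier results of these data known, so the contrast is a description.

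The direction went with signal. Of 17 members with a mean log2 intensity of 10 or more on the HCT116 pair, 16 were lower, with a median of -0.49, while 58.2% of all 1937 genes at that signal were lower, with a median of -0.06. Between 8 and 10, 8 of 9 members were lower, with a median of -0.40 against -0.05 for all genes. Between 6 and 8, 9 of 17 were lower and the median was -0.00 against 0.07. The log2 differences of the 43 genes were thus not of a common size on the array. Whether their RNA changed by a common amount was not tested.

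In HCT116-p53KO the same siRNA left the group near its control. Of 44 genes measured, 17 were lower and 27 higher, with a median of 0.02 against 0.00 over 13679 genes. At 1.5-fold, 1 gene was higher (3.63% of all genes were) and 1 was lower (2.38% of all genes were). H2AC14 was the higher one, from 7.44 with control to 8.20 with NRF3 siRNA. H2BC6 was the lower one, from 6.71 to 6.07. After H2AC14, the highest were H2AC25 (7.50 and 7.96), H2AC15 (11.62 and 11.92), H3C10 (9.53 and 9.80) and H4C1 (7.88 and 8.14). After H2BC6, the lowest were H2BC13 (8.23 and 7.82), H2BC12 (11.10 and 10.72), H2BC7 (11.80 and 11.45) and H1-6.

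By family, 8 of 11 H2A, 5 of 7 H3 and 8 of 9 H4 genes were higher in HCT116-p53KO, with medians of 0.09, 0.07 and 0.06. In H2B, 9 of 13 were lower, with a median of -0.17. H1 was split, with 2 of 4 higher and a median of -0.06. Of the 20 members with a mean log2 intensity of 10 or more, 16 were higher, with a median of 0.05, where all genes of that signal had a median of 0.03.

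**Figure D3:**
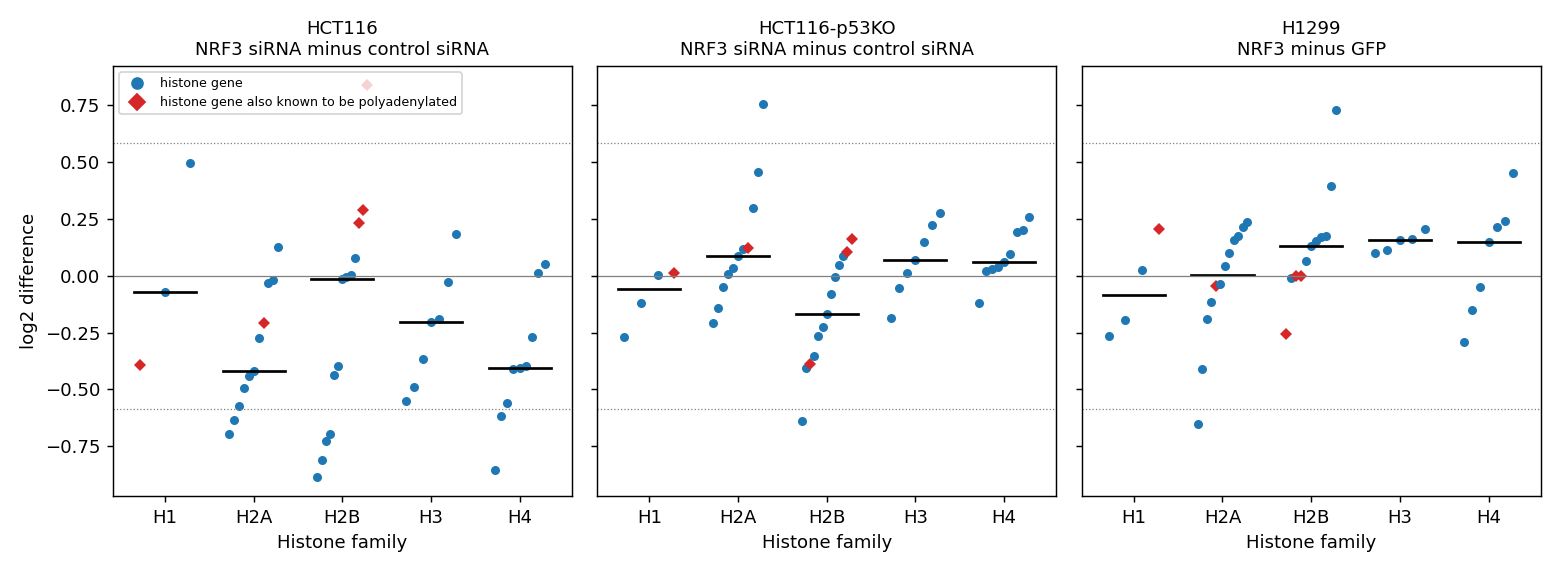
Log2 difference (vertical axis) of each measured gene in the 3 NRF3 comparisons, by family. Black bars mark the median, dotted lines 1.5-fold and diamonds the 5 genes listed as also known to be polyadenylated. In HCT116 the H2A and H4 medians are -0.42 and -0.40, while in HCT116-p53KO and H1299 no family median is farther from 0 than -0.17.

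Compared gene by gene, 34 of 43 histone genes had a lower difference in HCT116 than in HCT116-p53KO (79.1%, against 56.5% of 13565 genes measured in both), with a median gap of -0.33 against -0.05. Of the 43, 10 were lower in both lines, 4 were higher in both, 23 were lower in HCT116 and higher in HCT116-p53KO, and 6 were the reverse. Over all 13565 genes those shares were 30.2%, 31.5%, 19.0% and 19.2%, in the same order, so 53.5% of the histone genes but 19.0% of all genes were lower in HCT116 and higher in HCT116-p53KO. The Pearson correlation of both sets of differences was 0.17 and Spearman's rho 0.07 across the 43 genes, against 0.53 and 0.42 across all genes. These are descriptions across genes. The knockdown of NFE2L3 itself was deeper on the log2 scale in HCT116.

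**Figure D4:**
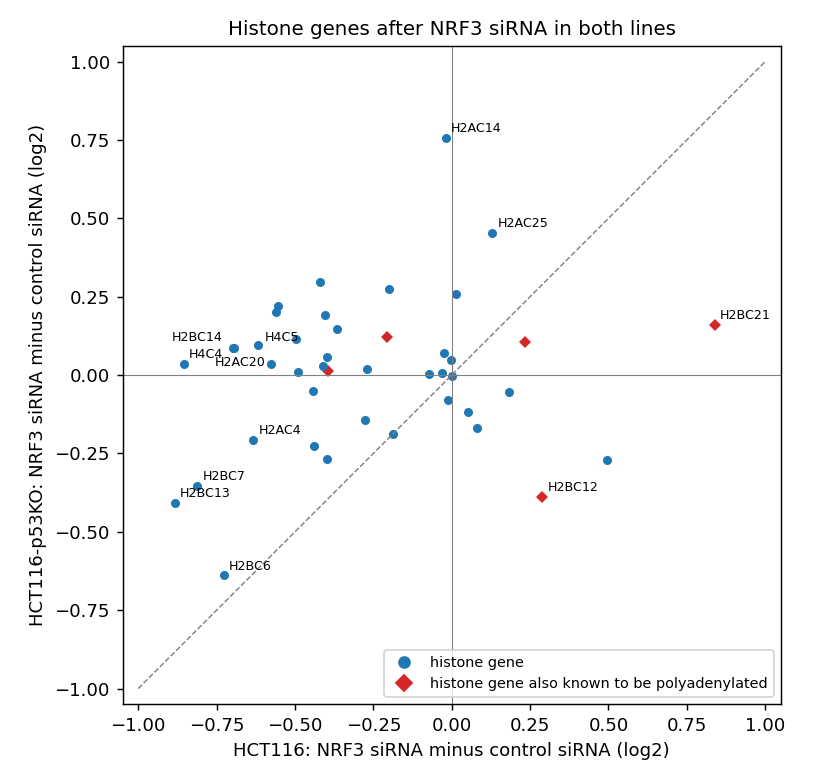
Log2 difference after NRF3 siRNA in HCT116 (horizontal axis) and HCT116-p53KO (vertical axis) for the 43 genes measured in both. The dashed line is that of equality, and diamonds mark the genes listed as also known to be polyadenylated. Most points lie left of the vertical line at 0 but close to the horizontal one; H2BC6, H2BC7, H2BC13 and H2AC4 are lower on both axes.

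The effect common to both lines was tested in limma with the cell line as a block, over the 4 arrays of the HCT116 lines. The only replication there is across the lines. limma put the prior degrees of freedom at infinity, so every gene had the same SE of 0.16, set by the spread between lines over all genes, and a gene's own disagreement between the lines did not enter its p. Of 44 members tested, 3 fell and 1 rose at a Benjamini-Hochberg adjusted p of 0.05, where 5.43% of 14147 genes fell and 4.45% rose. H2BC6 fell by 0.68 (SE 0.16, limma adjusted p = 0.000828), H2BC13 fell by 0.65 (adjusted p = 0.00176) and H2BC7 fell by 0.58 (adjusted p = 0.00624). H2BC21 rose by 0.50 (adjusted p = 0.0258). All 4 are H2B genes. The differences of H2BC21 in the lines were 0.84 and 0.16. After quantile normalization repeated over 6 arrays, H2BC7 (limma adjusted p = 0.0519) and H2BC21 (adjusted p = 0.130) were no longer called, while H2BC6 and H2BC13 were. Read against those percentages, the number of members called is near the background. With the prior spread taken from the fit of all 6 arrays, none of the 44 members was called and none of the 14147 genes was, with 1822 at an unadjusted p under 0.05.

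Other rows for the higher genes did not all agree in direction. A row that lists H2BC12 and H2BC5 with H2BC12L and H2BC17 went from 12.38 to 12.22 in HCT116 and from 12.56 to 12.69 in HCT116-p53KO, opposite to the single-symbol rows of H2BC12 in both lines and of H2BC5 in HCT116. The single-symbol row of H2BC21 gave the difference of 0.84 in HCT116, whereas a row that lists it with H2BC19P and H2BC20P went from 12.70 to 12.54, and a row that lists it with H2BC18 and H2BP1 went from 7.81 to 8.43. For the lower genes, a pair of identical rows that list H2AC20 and H2AC21 with H2AC18 and H2AC19 went from 11.70 to 11.46 in HCT116. That difference was -0.24, against -0.70 for H2AC20 and -0.58 for H2AC21 in their single-symbol rows. With NRF3 in H1299 the shared rows differed by -0.32, against -0.65 for the single-symbol row of H2AC21. Clustered histone genes are close copies, and how far a probe set reads a neighbouring copy was not tested.

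The lines themselves were compared with each siRNA. With control siRNA the histone genes of HCT116-p53KO and HCT116 were close. Of 44 genes, 30 were higher in HCT116-p53KO and 14 lower, with a median of 0.06 against 0.01 over all genes, and none was past 1.5-fold, where 0.868% of 13826 genes were higher and 3.45% lower by as much. The highest were H2BC9, 9.61 against 9.07 in HCT116, H1-6, H2AC25, 7.50 against 7.01, H2BC13, 8.23 against 7.75, and H2BC4, 10.47 against 10.09. The lowest were H2BC12, 11.10 against 11.41, and then H4C5, H3C12, H2BC5 and H4C2, all between -0.15 and -0.19. H2B genes were higher in 11 of 13 and H4 genes lower in 7 of 9.

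With NRF3 siRNA the gap was wider. Here 38 of 44 genes were higher in HCT116-p53KO and 6 lower, with a median of 0.48 against 0.02 over all genes. At 1.5-fold, 13 were higher (5.6% of 14006 genes were) and 2 were lower (4.75% of all genes were). H2AC14 was at 8.20 against 7.24 in HCT116, H2BC13 at 7.82 against 6.87, and H2BC14 at 13.88 against 12.93. H2AC13 followed, 10.46 against 9.53, and H2AC15, 11.92 against 10.98. All 11 measured H2A genes were higher, 6 of them by at least 1.5-fold. The lower genes were H2BC12, 10.72 against 11.70, and H2BC21, 8.01 against 8.62, both also known to be polyadenylated. The next lowest were H3C3 (-0.29), H2BC5 (-0.29) and H4C9 (-0.25). This comparison shares the HCT116 NRF3 siRNA array with the knockdown in HCT116 and the control siRNA comparison shares the HCT116 control array, so their values are not independent of those above.

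In the limma fit of the line, with siRNA as a block, 8 of 44 members were higher in HCT116-p53KO and 1 was lower, where 3.46% of genes were higher and 4.65% lower. H2BC13 was higher by 0.71 (SE 0.16, limma adjusted p = 0.000351), H2AC25 by 0.66 (adjusted p = 0.00135) and H2BC9 by 0.64 (adjusted p = 0.00184). H2AC13 was higher by 0.63, H2AC14 and H2AC15 by 0.57, H2BC14 by 0.56 and H2BC7 by 0.48. H2BC12 was lower, with a log2 difference of -0.65 (limma adjusted p = 0.00166). These genes are all H2A or H2B. Prior degrees of freedom were again infinite, so a gene's own disagreement between the siRNA groups did not enter its p. For each of these genes the line difference was larger in size with NRF3 siRNA than with control siRNA. With control then NRF3 siRNA, it was 0.18 and 0.96 for H2AC14, 0.17 and 0.95 for H2BC14 and 0.21 and 0.93 for H2AC15. The closest pair was 0.54 and 0.75, for H2BC9. After quantile normalization repeated over 6 arrays, H2BC13, H2AC25 and H2BC9 were still called and the other 6 were not. With the prior of the 6-array fit no member was called, while 28 genes of 14147 were higher and 152 lower.

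In H1299 the plasmid gave more NRF3, and the histone genes were near their GFP level. Of 39 genes measured, 24 were higher and 14 lower with NRF3, with a median of 0.10 against 0.00 over 11303 genes. At 1.5-fold, 1 was higher (4.82% of all genes were) and 1 lower (4.2% of all genes were). H2BC14 went from 11.57 with GFP to 12.30 with NRF3, the opposite direction to its HCT116 siRNA difference. H2AC21 went from 11.21 to 10.56. H4C4 was the second highest, from 7.87 to 8.32, followed by H2BC8 (7.46 and 7.85), H4C8 (7.70 and 7.95) and H2AC8. The next lowest were H2AC14 (6.86 and 6.45), H4C14 (11.38 and 11.08), H1-3 (7.39 and 7.12) and H2BC12 (10.86 and 10.61).

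All 5 measured H3 genes were higher in H1299 with NRF3, with a median of 0.16, and 7 of 11 H2B genes were, with a median of 0.13. H2A was split, with 6 of 12 higher and a median of 0.00. By chromosome, of the 4 measured genes on chromosome 1, none was higher and 3 were lower, with a median of -0.24, while 24 of 35 on chromosome 6 were higher, with a median of 0.13.

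Turned so that each pair gave more NRF3 minus less, the 3 lines were tested together in limma with line as a block. None of 49 members tested was called at an adjusted p of 0.05, and 5 were at an unadjusted p under 0.05: H2AC14, H2BC7, H2BC13, H2BC14 and H4C4. Over all 14491 genes 1 was called, 0.0069% of them, and 1615 were at an unadjusted p under 0.05.

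The wider S phase program was read beside the histone genes. In HCT116, of 33 S phase and E2F target genes, 23 were lower and 10 higher after NRF3 siRNA, with a median of -0.18. Of all genes measured there, 48.4% were lower. By at least 1.5-fold, 2 of the 33 (6.06%) were lower, near the 6.02% of all genes. In HCT116-p53KO 27 of 33 were higher, with a median of 0.16, and in H1299 17 of 33 were higher with NRF3, with a median of 0.00. The histone medians beside these were -0.37, 0.02 and 0.10. Of this list, limma over the 4 arrays called CCNE2, an E-type cyclin, up by 0.67. It called RRM1, the large subunit of ribonucleotide reductase, down, with a difference of -0.59. In H1299 with more NRF3, CCNE2 was higher too, by 0.61, and RRM1 was higher by 0.18. CLSPN, a replication checkpoint adaptor, differed by -0.70 in HCT116, and POLE2, a polymerase epsilon subunit, by -0.47. MCM2 and MCM5, helicase subunits, went from 10.16 to 9.83 and from 10.81 to 10.36 there, while PCNA, the polymerase clamp, was at 10.55 and 10.59. After CCNE2, the highest of the 10 higher in HCT116 were RRM2, by 0.45, and GINS3, by 0.20. The highest in HCT116-p53KO were GINS3, by 0.67, CCNE2, by 0.64, and CDC45, by 0.58, and the lowest was RRM1, at -0.56.

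Of 23 genes that make and process histone RNA, 15 were lower in HCT116, with a median of -0.25, against 0.02 in HCT116-p53KO and 0.16 in H1299. NPAT went from 9.18 to 8.58 in HCT116, and was 9.26 and 9.28 in HCT116-p53KO. CDK2 went from 10.69 to 10.06, and was 10.79 and 10.55 in HCT116-p53KO. SLBP went from 10.35 to 9.85, and CASP8AP2 from 7.88 to 7.38, against 10.41 and 10.23 and 7.73 and 8.16 in HCT116-p53KO. ERI1 had 10.00 and 9.05 in HCT116 and 8.92 and 8.52 in HCT116-p53KO, and in limma it fell by 0.67 (limma adjusted p = 0.00100). CCNE2 and ZNF473, a zinc finger protein of the U7 snRNP pathway, rose, the latter by 0.53 (limma adjusted p = 0.0172). HINFP, which binds H4 promoters, was at 8.65 and 8.68 in HCT116.

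Replication-independent histones did not follow one direction. In HCT116, 5 of 9 were higher, with a median of 0.02, and in HCT116-p53KO 2 of 9 were higher, with a median of -0.17. H2AZ1, the variant H2A.Z, had 11.88 with control and 10.69 with NRF3 siRNA in HCT116 and 12.01 and 11.16 in HCT116-p53KO, and fell by 1.02 in limma (adjusted p = 6.33e-08). MACROH2A2, a macroH2A variant, had 9.58 and 10.06, and 9.22 and 10.11, and rose by 0.68 (limma adjusted p = 0.000828). In H1299 with NRF3 they went the other way, H2AZ1 by 0.31 and MACROH2A2 by -0.37.

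Chaperones that carry new histones to DNA had medians of -0.09, 0.09 and 0.05 in HCT116, HCT116-p53KO and H1299, over 17 genes. ASF1B, which hands H3 and H4 to the assembly factors, fell by 0.62 and RBBP4, a subunit of the CAF-1 assembly complex, rose by 0.54 in limma. Genes of G2 and mitosis gave the widest shift of the 5 lists in HCT116. Of 25 genes, 23 were lower, with a median of -0.69, and 18 (72.0%) were lower by 1.5-fold or more, where 6.02% of all genes were. Their medians were -0.15 in HCT116-p53KO and 0.15 in H1299, and 10 of the 25 fell in limma, where 5.43% of all genes did. How much of the histone difference in HCT116 goes with a change in the share of cells in S phase was not tested, and fewer cells in S phase and less histone RNA per cell cannot be told apart in these bulk samples.

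**Figure D5:**
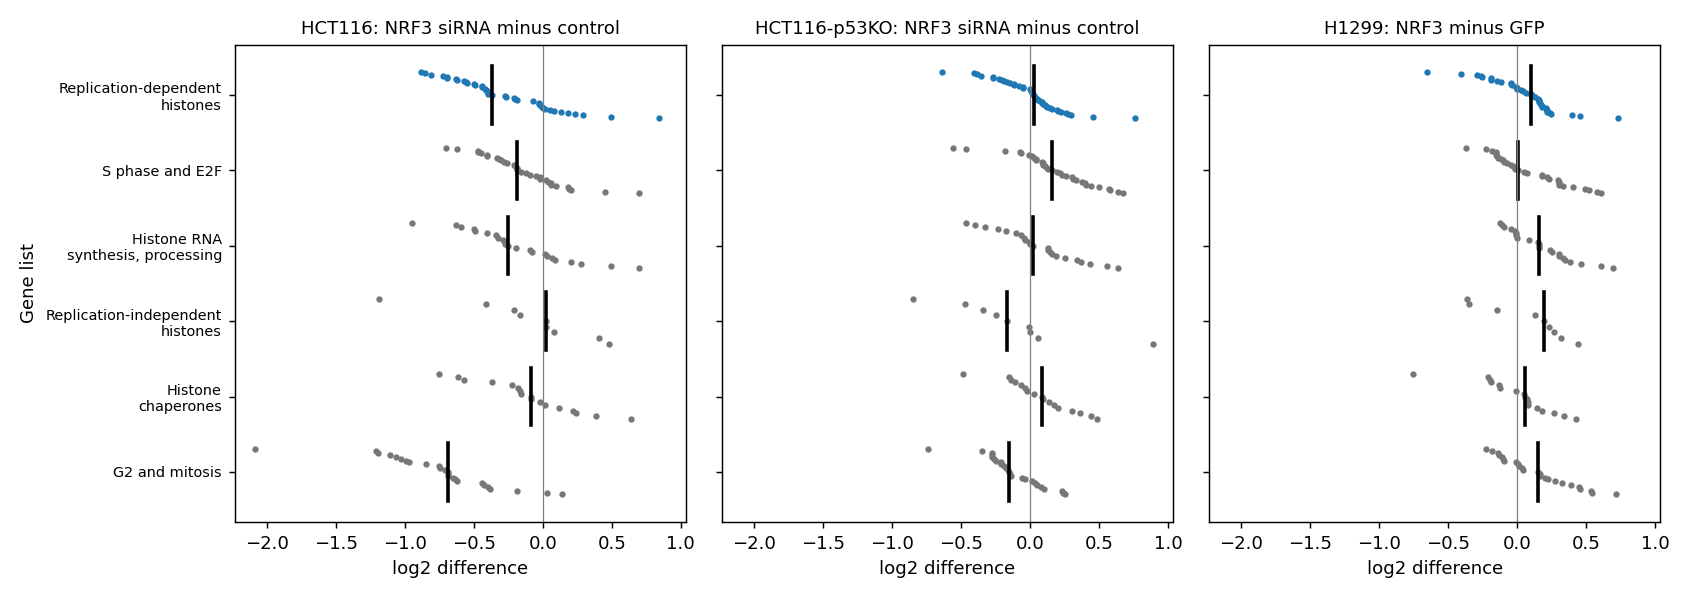
Log2 difference (horizontal axis) of every measured gene of the replication-dependent histones and of 5 other lists in the 3 NRF3 comparisons, with black bars at the medians. In HCT116 the bars run from -0.69 for G2 and mitosis through -0.37 for the histones to 0.02 for replication-independent histones, and in HCT116-p53KO the histone bar is at 0.02.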

How the data were processed

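The authors deposited log2 intensities of whole-transcript probe sets. Per the submitters' processing notes, these were made by RMA with Affymetrix Expression Console, whose version is not named. The labels' protocols state 100 ng of total RNA and the Ambion WT kit, a type of kit that is not primed from poly(A) tails alone, so histone RNA without a tail can be labelled. Which arrays were normalized together is not known.

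Of 33297 rows, 19460 had 1 annotated symbol, 1754 several and 12083 none. Single-symbol rows were used, with the row of the highest mean for a gene. A gene counted as measured where at least 1 array of a comparison had it at 6 or more (log2), and differences were counted at 1.5-fold. All members may be named. Other lists are named by up to 4 of their largest differences in each NRF3 comparison and by their limma calls. MCM2, MCM5, RRM2, PCNA, SLBP, CASP8AP2 and HINFP were added after their values were seen. Members and lists were chosen with earlier results of these data known.

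limma 3.58.1 in R 4.3.3 was run with lmFit and eBayes, two-sided, with Benjamini-Hochberg at 0.05 over all genes tested. Fitted to 4 arrays, it had 1 residual degree of freedom and infinite prior degrees of freedom. Fitted to 6 arrays, it had 2 and 5.90. A check on simulated data gave all genes the same noise variance, as infinite prior degrees of freedom assume, so it cannot test that assumption. Labels do not say that lines were cultured in replicate. Alternatives were other filters, fold limits, probe set summaries, normalizations, priors and thresholds, and leaving out each line. Names, gene order and upstream sequences came from RefSeq tables of GRCh38.p14. The level of the gene knocked out in HCT116-p53KO is not reported here.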

Additional observations from a re-analysis of the deposited data

Results flagged for a closer look

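H1-6, H2AC15 and H2BC12 stood out because NRF3 siRNA gave opposite directions in the HCT116 lines, each by at least 1.2-fold. The difference between lines was not tested, since each line had 1 array per siRNA. H1-6, the testis linker histone, had a log2 difference of 0.50 in HCT116 and -0.27 in HCT116-p53KO, a gap of 0.77. Its levels in these lines were 6.18 to 6.70, near the limit of 6. H2AC15 had -0.42 and 0.30, a gap of -0.72. H2BC12, also known to be polyadenylated, had 0.29 and -0.39, a gap of 0.68.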

How the results depend on the processing

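No median difference of the members, and no limma difference of a called member, changed sign under any alternative run. Counts have no sign and are given below. In HCT116 the median histone difference of -0.37 was -0.25 with no expression filter and -0.26 as a mean. The 8 genes lower by 1.5-fold were 22 at a limit 25% above equality and 0 at 2-fold. Without the 5 genes listed as also known to be polyadenylated, an alternative chosen after seeing the data, the median was -0.40 and the 1 higher gene was 0. In HCT116-p53KO the 1 lower gene was 0 with a filter of 7, repeated quantile normalization or loess correction. Between the lines with NRF3 siRNA, the median of 0.48 was 0.30 with no filter and 0.37 as a mean, and the 13 higher genes were 26 and 0 at those fold limits. In limma over 4 arrays, the 3 histone genes that fell with NRF3 siRNA were 5 at an adjusted p of 0.10, 7 with a trended robust prior, 2 with a filter of 7, which leaves out H2BC6, 2 after quantile normalization repeated over 6 arrays, where H2BC7 lost its call, and 0 with the prior of the 6-array fit. The 1 that rose was 0 with no filter, with that prior and after that normalization. In the line fit the 8 higher genes were 4 with no filter, 3 after repeated quantile normalization and 0 with the 6-array prior, and the 1 lower gene was 0 under the last 2. The causes were not tested. Over 6 arrays, leaving out each line gave 0 to 1 histone genes that fell and 0 to 3 that rose with more NRF3; the calls came without the H1299 pair. Over all genes, the NRF3 siRNA fit called 768 lower and 630 higher, against 440 and 414 after repeated quantile normalization and 0 with the 6-array prior, and the line fit 490 higher and 658 lower, against 304 and 590 with no filter, 156 and 486 after repeated quantile normalization and 28 and 152 with that prior. Leaving out a line from a 4-array fit leaves no residual degree of freedom, so it gives the differences of single pairs above and was not run as a test. Signals under a log2 intensity of 6 limit what can be said of 7 genes on every array.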

Other observations

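Of the 19 rows annotated with several histone symbols, which were not members, some not described above are given here. The RefSeq neighbours H3C13, H3C14 and H3C15 share 4 rows, a pair of them identical, whose levels in HCT116 were 12.16 to 13.19 with control siRNA and differed by 0.04 to 0.05 after NRF3 siRNA. A row for H3C4 and H2AC7 went from 12.60 to 11.91 there, and was 12.46 and 12.64 in HCT116-p53KO. A row for H4C11 and H4C12 went from 11.30 to 10.87 in HCT116, and was 10.65 and 10.82 in HCT116-p53KO. Of a pair of rows for H2BC18 and H2BP1, one went from 6.90 to 7.66 in HCT116 and the other from 12.53 to 12.47. For H4C14 and H4C15, a shared row was at 8.70 and 8.72 in HCT116, while the single-symbol row went from 12.65 to 12.24, so rows for the same genes gave different differences.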
